A study of Mus musculus with 2 samples.

Results

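The immediate early genes described here were 10 genes chosen by symbol, Fos, Fosb, Jun, Junb, Jund, Egr1, Atf3, Ier2, Dusp1 and Zfp36, out of 32285 features counted in sorted mouse retinal cells. All 10 symbols were found, each in 1 row. Single-cell RNA counts came from 2 libraries, labelled Muller and MullerControl, with 1 library per group and therefore no replicate. Both were prepared from retinas of mice on a B6.Cg background with the allele Gt(ROSA)26Sortm9(CAG-tdTomato)Hze, a tdTomato reporter that Cre recombinase switches on. The mice of both groups were 14 weeks old and had received AAV (adeno-associated virus) 8 weeks earlier. Sorting collected tdTomato-positive cells, which were about 4.9% of the test cells and 10% of the control cells, and 27000 sorted cells of each were loaded. The labels name a test and a control sort, and Muller is read here as the test because the other library is named for the control. They do not say what the virus carried, which promoter drove it, or how many mice were pooled.

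Immediate early genes are transcribed within minutes of a stimulus without new protein synthesis, through kinase cascades that act on factors already bound at their promoters. Many of their products form AP-1, a dimer of a Fos and a Jun family protein that binds DNA and switches on later genes, while others end the response by removing phosphates from kinases or by degrading the messenger RNAs. In the retina they respond to light, injury and signalling between neurons and glia, and in any tissue they can respond to the enzymes, warming and sorting used to make a cell suspension, so that a level in sorted cells covers the animal and the preparation together. With 1 preparation per group these cannot be told apart.

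Promoter windows of 8 of the 10 genes were present in the RefSeq table used here (build GRCm38.p6), each running from 250 bases before to 50 bases after the annotated start. Those of Fos, Fosb, Jun, Atf3, Dusp1 and Zfp36 are printed because these genes carry the class patterns described below, and capitals mark every match, on either strand, to 7 motifs.
Fos, chr12:85473640-85473939, plus strand: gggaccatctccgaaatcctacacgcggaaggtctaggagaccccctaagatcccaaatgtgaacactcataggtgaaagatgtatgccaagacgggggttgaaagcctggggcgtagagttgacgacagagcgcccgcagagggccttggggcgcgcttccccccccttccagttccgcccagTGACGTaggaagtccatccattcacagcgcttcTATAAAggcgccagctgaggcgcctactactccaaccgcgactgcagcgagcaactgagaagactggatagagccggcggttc
Fosb, chr7:19309996-19310295, minus strand: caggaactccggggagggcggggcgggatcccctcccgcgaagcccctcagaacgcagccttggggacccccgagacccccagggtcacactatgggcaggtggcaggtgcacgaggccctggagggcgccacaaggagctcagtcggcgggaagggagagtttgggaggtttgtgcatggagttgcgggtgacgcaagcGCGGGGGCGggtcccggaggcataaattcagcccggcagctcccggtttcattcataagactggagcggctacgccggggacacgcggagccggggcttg
Jun, chr4:95052173-95052472, minus strand: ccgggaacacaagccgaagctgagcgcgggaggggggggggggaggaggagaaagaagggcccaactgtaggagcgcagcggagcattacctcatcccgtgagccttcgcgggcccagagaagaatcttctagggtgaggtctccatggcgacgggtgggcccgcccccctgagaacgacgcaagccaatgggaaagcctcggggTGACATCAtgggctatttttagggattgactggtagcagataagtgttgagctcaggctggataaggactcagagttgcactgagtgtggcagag
Atf3, chr1:191183284-191183583, minus strand: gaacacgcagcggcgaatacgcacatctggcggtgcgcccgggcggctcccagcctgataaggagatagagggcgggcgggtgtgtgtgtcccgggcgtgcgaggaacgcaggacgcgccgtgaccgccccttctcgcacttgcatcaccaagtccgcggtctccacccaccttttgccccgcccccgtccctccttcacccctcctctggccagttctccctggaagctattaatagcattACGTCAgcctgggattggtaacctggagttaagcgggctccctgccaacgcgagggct
Dusp1, chr17:26508423-26508722, minus strand: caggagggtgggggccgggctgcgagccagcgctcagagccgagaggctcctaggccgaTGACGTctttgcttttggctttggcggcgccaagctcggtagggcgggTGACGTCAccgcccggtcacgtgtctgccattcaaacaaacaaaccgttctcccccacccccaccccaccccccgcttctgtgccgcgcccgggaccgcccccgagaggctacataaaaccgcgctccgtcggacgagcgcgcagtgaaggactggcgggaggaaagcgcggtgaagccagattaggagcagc
Zfp36, chr7:28379179-28379478, minus strand: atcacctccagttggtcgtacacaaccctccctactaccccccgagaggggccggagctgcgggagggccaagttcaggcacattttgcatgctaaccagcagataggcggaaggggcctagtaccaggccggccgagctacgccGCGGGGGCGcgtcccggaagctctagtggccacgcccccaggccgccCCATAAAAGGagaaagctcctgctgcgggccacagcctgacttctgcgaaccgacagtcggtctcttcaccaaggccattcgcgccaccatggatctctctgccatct

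The motifs were the cAMP response element TGACGTCA, its core TGACGT, the AP-1 site TGANTCA, the related Jun site TGACATCA, the EGR site GCGNGGGCG, the TATA box TATAAA and the CArG box of serum response factor. The core lies inside the full cAMP response element, so that a full match counts under both. Among all 32851 windows of the table, a full cAMP response element was found in 1.79%, its core in 7.51%, the AP-1 site in 7.81%, the related Jun site in 3.62%, the EGR site in 5.55%, the TATA box in 13.6% and the CArG box in 1.63%. The Dusp1 window held 1 full element and a further core, the Fos window 1 core and a TATA box, and the Atf3 window 1 core 8 bases before its start. The Jun window held the related Jun site, the Fosb window an EGR site, and the Zfp36 window an EGR site and a CArG box. No printed window held TGANTCA. A match describes these letters only and does not show that a factor was bound.

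In GENCODE release M21 (GRCm38) all 10 are protein-coding genes. Fos lies at chr12:85473890-85477273, Fosb at chr7:19302696-19310051, Jun at chr4:95049034-95052222, Junb at chr8:84974484-84978718 and Jund at chr8:70698949-70700616. Egr1 lies at chr18:34859823-34864984, Atf3 at chr1:191170296-191218039, Ier2 at chr8:84661331-84662852, Dusp1 at chr17:26505590-26562128 and Zfp36 at chr7:28376784-28380253. Other counted genes overlap Jun (the antisense Junos), Junb (Prdx2), Jund (Gm11175), Dusp1 (Ergic1 and a sense intronic transcript) and Zfp36 (Gm44710), and how reads in these overlaps were assigned is not given in the sources used here.

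The Muller library held 12316 barcodes with 25622379 UMIs (unique molecular identifiers, each counting 1 captured transcript) and the MullerControl library 11309 barcodes with 23549118 UMIs, and 40 barcode sequences occurred in both. After filters on genes detected, mitochondrial UMIs and doublet score, 10757 and 9538 barcodes were kept, with medians of 1502 and 1589 UMIs. Cells were placed in a class by the markers they expressed. In the order Muller, then MullerControl, there were 1108 and 632 Müller-like (glial) cells, 106 and 163 microglia-like, 2933 and 858 bipolar-like, 628 and 153 amacrine-like, 325 and 799 cone-like, and 4028 and 6320 rod-like cells. All 12 Müller markers had UMIs in the Müller-like cells of both libraries and all 12 microglial markers in the microglia-like cells. The same lists set the gates, so this was largely fixed in advance. Rod-like cells of both libraries also had UMIs of all 12 markers of each list, so it does not set the classes apart. Median depth differed between classes and libraries, from 1040 UMIs in rod-like cells of the Muller library to 4942 in microglia-like cells of MullerControl. Levels below are UMIs of a gene per 1000000 UMIs of a class (CPM), and 95% intervals cover counting error only, not the spread between animals or preparations. Levels are compared between classes or libraries for 1 gene, not between genes.

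Over the 10 genes summed, microglia-like cells stood highest, with 7264 CPM (7001 to 7534) in Muller and 10242 CPM (10026 to 10462) in MullerControl. Müller-like cells followed with 2121 and 2049.8 CPM, then bipolar-like cells with 878 and 853, amacrine-like with 722 and 629, cone-like with 523 and 459, and rod-like with 411 and 330.3. This order of the 6 classes was the same in both libraries. Microglia-like cells were 0.985% of kept cells in Muller and 1.71% in MullerControl but held 13.6% and 41.7% of the kept UMIs of these genes, and Müller-like cells held 21.2% and 17.1%.

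Fos, the AP-1 subunit most used as a mark of recent stimulation, was at 674 CPM in microglia-like cells of Muller and 977 in MullerControl, and at 324 and 296 in Müller-like cells. Bipolar-like cells had 150.1 and 136 CPM and amacrine-like cells 111 and 118, while cone-like cells had 36.6 and 26.3 and rod-like cells 23.1 and 10.6. The intervals of bipolar-like and amacrine-like cells overlapped in MullerControl. Fosb, a Fos relative whose protein outlasts Fos, differed in its pattern, since it was largely a glial and microglial transcript here. It was at 52.5 CPM (43.2 to 63.3) in Müller-like cells of Muller and 82.4 (69.3 to 97.2) in MullerControl, against 1.54 and 1.5 CPM in bipolar-like cells. Müller-like cells held 56.9% of the kept Fosb UMIs in Muller and 62.2% in MullerControl, and the Müller-like and microglia-like intervals overlapped in both libraries.

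The Jun family members, which pair with Fos proteins or with each other, were also highest in microglia-like cells. Jun was at 2109 and 2819.5 CPM in microglia-like and 441 and 456 in Müller-like cells. Among the neurons, cone-like cells at 143 and 148 CPM stood above bipolar-like cells at 41.3 and 38.3, the reverse of their order for Fos. Junb, which can oppose Jun at some targets, was at 1743 and 2391 CPM in microglia-like cells, 289.7 and 278 in Müller-like, 113 and 96.3 in bipolar-like and 23.7 and 24.6 in cone-like cells, so that bipolar-like cells stood above cone-like cells for it, as for Fos and unlike Jun. Jund, the family member that most resting cells express, had the narrowest spread over the classes, from 166 and 115 CPM in rod-like to 1012 and 1115 in microglia-like cells.

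Atf3, a stress-induced factor that pairs with Jun proteins, was the member with the most separate distribution. Microglia-like cells had 194 CPM (153 to 243) in Muller and 565 (515 to 618) in MullerControl. Rod-like cells came next with 25.7 and 24.9 CPM, above Müller-like cells, which had 8 UMIs in all in Muller (3.79 CPM, 1.64 to 7.46) and 10 in MullerControl (5.89 CPM, 2.82 to 10.8). Per 100 Jun UMIs there were 35.5 and 36.1 Atf3 UMIs in rod-like cells and 27.2 and 14.8 in bipolar-like cells. Microglia-like cells had 9.21 and 20, cone-like cells 5.26 and 5.83 and Müller-like cells 0.859 and 1.29. Amacrine-like cells, with 3 and 1 Atf3 UMIs, are left out. Jun, the divisor, was lowest in bipolar-like cells in both libraries. The ratio therefore differed between classes in both libraries, and in bipolar-like and microglia-like cells it also differed between the libraries.

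Egr1, a zinc-finger factor induced along with Fos, was at 399 and 677 CPM in microglia-like cells, 140.3 and 244 in bipolar-like, 116 and 68.3 in Müller-like and 14.1 and 6.30 in rod-like cells. Bipolar-like cells stood above Müller-like cells in both libraries for Egr1 and below them for 8 members. For Atf3 the order differed, with 11.2 CPM in bipolar-like cells of Muller, above the Müller-like cells, and 5.69 in those of MullerControl. Ier2, a short early-response gene, was at 477 and 579 CPM in microglia-like and 235 and 199 in Müller-like cells.

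The members that damp the response were also highest in microglia-like cells. Zfp36, which encodes tristetraprolin, a protein that binds and destabilises mRNAs of cytokines and of early genes, was at 529.8 and 837 CPM in microglia-like cells and 42.6 and 42.4 in Müller-like cells, with between 2.08 and 4.70 CPM in each neuronal class. Microglia-like cells held 53.6% of its kept UMIs in Muller and 84.7% in MullerControl. Dusp1, a phosphatase that inactivates mitogen-activated kinases, was less restricted, at 93.3 and 214 CPM in microglia-like, 65.3 and 90.6 in Müller-like, 48.2 and 45.8 in bipolar-like and 40.4 and 46.4 in amacrine-like cells. Its microglia-like and Müller-like intervals overlapped in Muller.

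**Figure D1:**
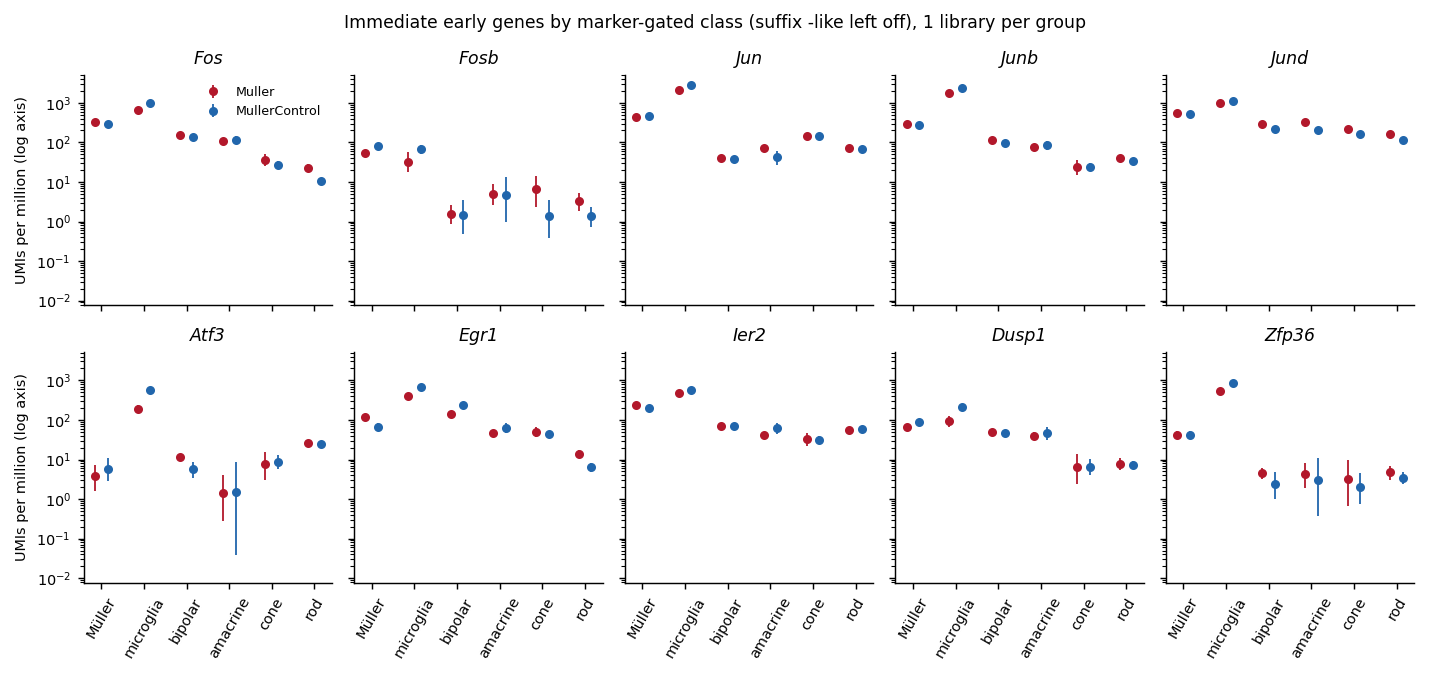
Level of each of the 10 genes (CPM, log axis) in the 6 marker-gated classes, 1 point per library, with bars for the 95% Poisson interval. Microglia-like cells stand highest for every gene but Fosb, and Zfp36 and Fosb drop to under 10 CPM in the neuronal classes.

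Cells were then thinned to 1000 UMIs each, so that shares of cells with a UMI could be compared, which left out 408 and 196 shallower Müller-like cells and kept 700 and 436. At this depth, 57.9% of Müller-like cells of Muller and 52.5% of MullerControl had a UMI of at least 1 member, and rod-like cells had 28.0% and 24.4%. Rod-like cells have levels of their own for some members, such as Atf3, so they give no background for free RNA, and its share was not measured. Unthinned, the shares over all 1108 and 632 Müller-like cells were 65.3% in both libraries. Of the cells deep enough to be thinned, median depth before thinning was 2174.5 and 3632.5 UMIs in Müller-like and 1543 and 1672 in rod-like cells.

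The members fell unevenly over the Müller-like cells. At least 3 different members were seen in 13.9% (11.4 to 16.6) of thinned Müller-like cells of Muller and 10.3% (7.63 to 13.6) of MullerControl, and at least 5 in 6.71% and 5.05%. In thinned bipolar-like cells at least 1 member was seen about as often, in 52.6% and 48.8%, yet at least 3 in 3.48% and 3.53% and at least 5 in 1 of 2704 cells and in 0 of 821, where the limit used here for a count of 0, 3 counts of the total, allows a share of up to 0.365% (exact binomial upper bound 0.448%). Rod-like cells had at least 3 members in 0.575% and 0.435%. Microglia-like cells had at least 3 members in 43.9% and 50.6% and at least 5 in 24.5% and 26.9%, while 22.4% and 21.2% had none.

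**Figure D2:**
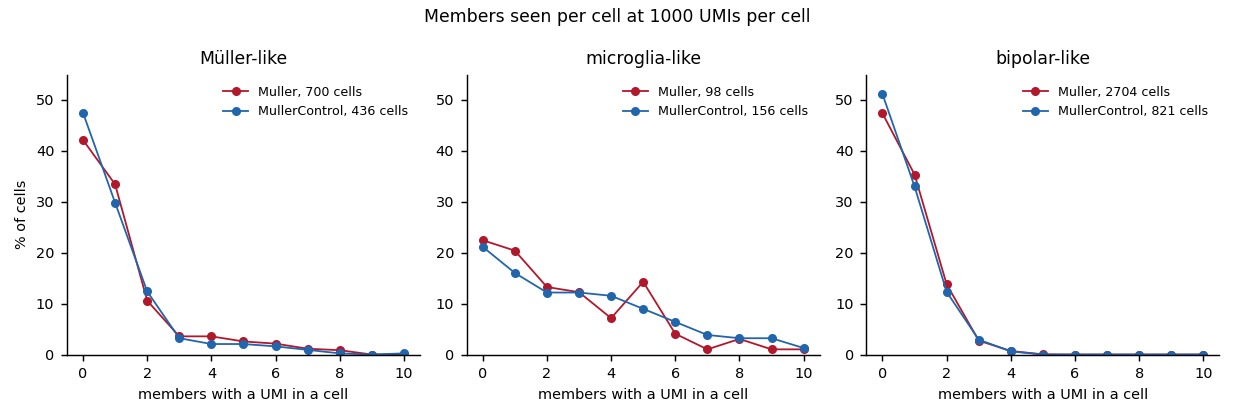
Share of thinned cells (%) by the number of different members with a UMI, in Müller-like, microglia-like and bipolar-like cells of both libraries, at 1000 UMIs per cell. Müller-like and bipolar-like cells have like shares with 0, 1 or 2 members, and Müller-like cells add a tail of cells with up to 8 members in Muller and 10 in MullerControl.

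Without thinning, the 10% of Müller-like cells with the most member UMIs held 67.9% of the class's member UMIs in Muller and 68.8% in MullerControl, with 17.1% and 16.8% of all its UMIs. The like values for bipolar-like cells were 35.6% and 40.0%, and for microglia-like cells 46.0% and 44.3%. The median Müller-like cell had 1 member UMI in each library, and the highest cell had 103 in Muller and 240 in MullerControl.

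The same Müller-like cells carried most of the members together. Among the 95 thinned Müller-like cells of Muller with a Fos UMI, 60% (49.4 to 69.9) also had Jun, against 15.7% (12.9 to 18.9) of the 605 cells without Fos. For Ier2 the shares were 54.7% and 8.43%, for Junb 46.3% and 6.12%, for Egr1 42.1% and 5.79%, and for Fosb 21.1% and 0.826%. In MullerControl, with 53 and 383 cells, Ier2 was seen in 54.7% and 2.87%, Junb in 50.9% and 3.92%, Jun in 47.2% and 13.8%, Fosb in 28.3% and 1.04% and Egr1 in 24.5% and 2.09%. The intervals with and without Fos did not overlap for these 5 genes, for Jund or for Zfp36 in either library. Dusp1 was seen in 11.6% against 5.45% in Muller and 13.2% against 4.96% in MullerControl, with overlapping intervals, and Atf3 in 1 of 95 and 2 of 53 cells with Fos.

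Thinned bipolar-like cells differed from this. Jun was seen in 2.58% of those with Fos and 4.29% of those without in Muller, and in 5.88% and 4.76% in MullerControl, and Ier2 in 7.45% and 6.11% and in 8.24% and 6.25%, with overlapping intervals. Egr1 alone of the members was seen more often beside Fos with intervals apart in both libraries, in 21.8% against 10.4% and in 31.8% against 14.0%. In microglia-like cells Junb was seen in 79.2% and 75.3% of cells with Jun and in 24.4% and 25.4% of cells without it.

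**Figure D3:**
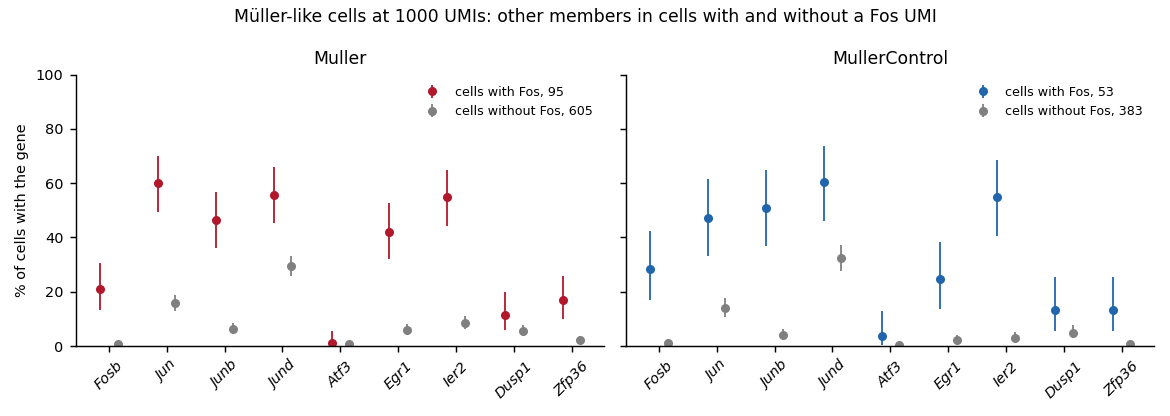
Share (%) of thinned Müller-like cells with each other member, in cells with a Fos UMI (coloured) and without (grey), by library, with 95% binomial intervals. Ier2 is seen in 54.7% of cells with Fos in both libraries, while Atf3 stays under 4% on either side.

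Unthinned Müller-like cells with at least 5 members numbered 84 in Muller and 46 in MullerControl. Their summed Müller markers were at 20518 and 26660.4 CPM, against 18361 and 23282 CPM in the cells with no member, and their summed microglial markers were at 7.76 and 10.99 CPM, against 46.3 and 46.4. Their rod markers were at 4695 and 2923 CPM, against 8913 and 7224, and their median depth was 2024.5 and 4020.5 UMIs, against 820 and 888. Endothelial markers went the other way, at 1967 and 2390 CPM against 1613 and 2233. The whole Müller-like class had 1769 and 2135 CPM of this endothelial list, with no UMI of its marker Cdh5 in either library. Kdr and Flt1 from the same list were among the leading genes of the Müller cluster 4 described below. Cells that passed the microglial or rod gate had been kept out of the class, so low values of those markers were partly set by the gate, and the cells without a member were shallower. Among thinned Müller-like cells, those with at least 3 members had median doublet scores of 0.035 in Muller and 0.048 in MullerControl. Those with no member had 0.021 and 0.032. The part of other cell types, of doublets and of depth in these groupings was not tested.

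The genes whose detection went most with the number of members seen in thinned Müller-like cells were Btg2, an antiproliferative early gene (Pearson r of 0.40 in 700 cells of Muller and 0.47 in 436 of MullerControl), and Ccn1, a secreted matrix protein and early gene (0.37 and 0.43). The next were Hist1h1e, Gadd45g, Cebpd, Ccn2, Coq10b and Actb, with r between 0.12 and 0.25. These weak values were computed within each library, in cells thinned to the same depth, and were not tested. In Müller-like cells with at least 5 members Btg2 was at 1071 and 1752 CPM, against 79.4 and 71.4 in cells with none, and Ccn1 at 667 and 599, against 30.9 and 10.7.

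Within the Müller-like class the level also followed 2 groups of cells that clustering separated. Cluster 4, led by Cp, Gpr37, Slc1a3 and Aqp4, had 2395 CPM of the summed members in Muller (662 cells) and 2235 in MullerControl (373 cells). Cluster 7, with Ptgds and Cryab among its leading genes, had 1073 CPM (404 cells) and 1062.5 (254 cells). Cluster 7 was shallower, with median depths of 671.5 and 853.5 UMIs against 2151.5 and 4192, and its median share of UMIs from Malat1, an RNA kept in the nucleus, was 1.12% and 0.408% against 19.4% and 13.5%. Fosb showed the sharpest contrast, at 63.4 and 97.6 CPM in cluster 4 and at 2 UMIs and 0 UMIs in cluster 7, where 0 UMIs allow up to 11.8 CPM by the same limit of 3 counts (exact Poisson upper bound 14.6 CPM). Jund differed least, at 583 and 539 CPM in cluster 4 and 482 and 502 in cluster 7. The part of depth and of nuclear RNA in these differences was not tested.

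In bipolar-like cells the members differed strongly between clusters. Egr1 was highest in clusters 8 and 11 in both libraries, while the order of clusters for Jun and Junb differed in part between the libraries. Egr1 was at 363 CPM in Muller and 662 in MullerControl in cluster 8, with Hs3st4, Cabp5, Htr3a and Cdh9 among its leading genes, and at 370.5 and 786 in cluster 11, led by Fn1, Cntn5 and Sox6. Cluster 5, led by Cck, Vsx1, Reln and Tnnt1, had 110.1 and 288 CPM. Cluster 10, whose leading genes include Sebox, Car8 and Prkca, known from rod bipolar cells, had 8.82 and 16.7 CPM, and cluster 9, led by Grik1, Slitrk6 and Otor, had 11.6 and 5.60. So the Egr1 of bipolar-like cells lay mostly in clusters 5, 8 and 11, in which 1188 of its 1273 UMIs in Muller and 765 of 817 in MullerControl were counted.

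Fos did not follow Egr1 across these clusters. It was at 213 and 182 CPM in cluster 10, where Egr1 was low, close to its level in cluster 8 (201 and 202 CPM). In cluster 9 it was at 12.9 and 5.60 CPM and in cluster 12, led by Areg, Tmem200a and Gsg1, at 13.2 and 23.0, so that clusters 9 and 12 were low in both genes. Jun was at 113 and 104 CPM in cluster 9 and 66.0 and 41.9 in cluster 12, above its 18.6 and 5.19 in cluster 8 and 18.1 and 18.0 in cluster 10. Cluster 5 had Fos at 169 and 182 CPM and Jun at 53.9 and 55.7. Its Jun was above that of clusters 8 and 10, so Jun was not equally low wherever Fos was high. Junb was highest in cluster 8, at 241 and 178 CPM, and Dusp1 was at 83.8 and 77.1 CPM in cluster 10, against 21.9 and 14.0 in cluster 9. The members were left out of the genes that defined the clusters. Clusters differ in depth as well, with medians from 1058.5 to 4544.5 UMIs in Muller, and CPM are not corrected for it.

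**Figure D4:**
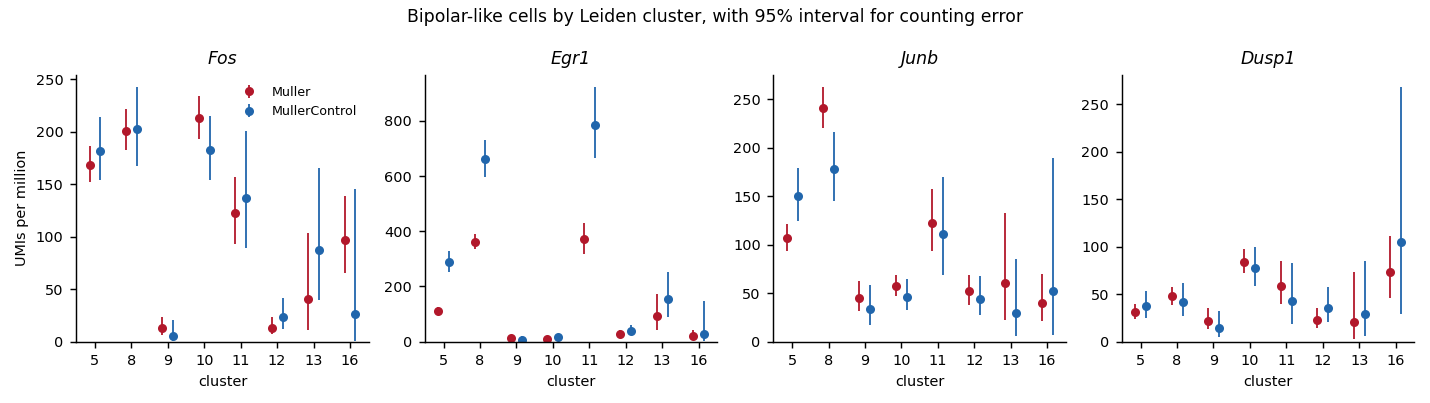
Level (CPM) of Fos, Egr1, Junb and Dusp1 in bipolar-like cells by cluster and library, with 95% Poisson intervals. Cluster 10 is high in Fos and near 0 in Egr1, cluster 8 is high in both, and clusters 9 and 12 are low in both. Cluster 11 is high in Egr1, with Fos at 122 CPM in Muller and 137 in MullerControl.

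The 2 libraries were then compared class by class, as the log2 ratio of Muller over MullerControl with 1 count added to each sum. A gene counted as measured where the class held 20 or more of its UMIs, libraries combined, and as differing when the ratio was at least 1.5-fold in either direction. With 1 library per group no p-value can be given, and animal, virus, sort and preparation cannot be told apart in any of these ratios. Ratios at these class sums compare relative RNA content, so fewer transcripts and more of other transcripts in a cell are not separated.

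In Müller-like cells the log2 ratio of the 10 genes summed was 0.05 (-0.01 to 0.11). Of 9 measured members 1 was higher in Muller and 1 lower, beside 14.3% of all 11144 genes measured in the class. Egr1 was the higher one, at 116 against 68.3 CPM, with a log2 ratio of 0.76 (0.45 to 1.08). With the doublet-score removal left out it was 0.40 (0.12 to 0.68), under 1.5-fold. Fosb was the lower one, at 52.5 against 82.4 CPM, with a log2 ratio of -0.65 (-1.0 to -0.29), and it was seen in 5.14% and 5.06% of unthinned cells. A single MullerControl cell held 21 of the 140 Fosb UMIs, and without the cell with the most member UMIs the ratio was -0.50, under 1.5-fold. Dusp1 was lower by less than 1.5-fold, at -0.47 (-0.80 to -0.14), Ier2 was at 0.24 (0.04 to 0.44), and the intervals of Fos, Jun, Junb, Jund and Zfp36 included 0. Atf3, with 8 and 10 UMIs, was not measured.

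The Müller-like ratios were not the same at every depth. The summed log2 ratio was 0.71 (0.41 to 1.00) in cells below 1000 UMIs, 0.31 (0.18 to 0.45) from 1000 to below 3000 and 0.04 (-0.04 to 0.12) from 3000 upwards. In cells with under 10% of their UMIs from Malat1 it was 0.35 (0.19 to 0.51), and in the others -0.09 (-0.16 to -0.02). Fosb was lower in Muller in the deep cells, at -1.15 (-1.65 to -0.66), and in those with more Malat1, at -1.02 (-1.39 to -0.64). From 1000 to below 3000 UMIs it was at 0.31 (-0.50 to 1.11), below 1000 UMIs it had 16 UMIs in Muller and 0 in MullerControl, and under 10% Malat1 it had 16 and 1. So its direction turned with depth and with Malat1. Egr1 was above 0 in all 3 depth ranges, at 0.75, 0.37 and 0.87, and the intervals of the shallower pair included 0. The part of depth and of Malat1 in the class ratios was not tested.

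Microglia-like cells had lower values in Muller for each of the 10 members, and the summed log2 ratio was -0.50 (-0.56 to -0.43). Of 10 measured members 0 were higher and 5 lower by at least 1.5-fold, beside 19.7% of 6481 genes, of which 11.7% were higher and 7.96% lower. The lower ones were Atf3 at -1.52 (-1.87 to -1.18), Dusp1 at -1.17, Fosb at -0.96, Egr1 at -0.76 and Zfp36 at -0.66. Jun was at -0.42, Junb at -0.45 and Fos at -0.53, and Jund, at -0.14 (-0.31 to 0.03), was the only member whose interval included 0. One MullerControl cell held 64 of the 469 Atf3 UMIs.

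Depth and cell number moved with this difference. The 128 microglia-like cells of MullerControl with at least 3000 UMIs had 10960.4 CPM and the 70 of Muller had 7769, a log2 ratio of -0.50. Among cells from 1000 to below 3000 UMIs, 28 in each library, the order was the other way round, with 4949 CPM in Muller and 915 in MullerControl, and a log2 ratio of 2.41 (1.99 to 2.84). In the thinned cells the shares with at least 3 members, 43.9% (33.9 to 54.3) and 50.6% (42.5 to 58.7), had overlapping intervals. Removal by doublet score took 23.2% of the gated microglia-like cells of Muller and 7.39% of those of MullerControl. The part of each in the class ratio was not tested.

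In bipolar-like cells the log2 ratio of the summed members was 0.04 (-0.02 to 0.10). Of 9 measured members 2 were higher and 1 lower, beside 11.3% of 12313 genes. Egr1 was the lower one, with 140.3 against 244 CPM and a log2 ratio of -0.80 (-0.93 to -0.67). The difference was present within the 3 clusters with the highest Egr1, with -1.39 for cluster 5 (-1.65 to -1.13), -0.87 for cluster 8 (-1.05 to -0.69) and -1.09 for cluster 11 (-1.40 to -0.77). Fos in the same clusters was at -0.12, -0.02 and -0.20, with intervals that included 0. Atf3 was higher in Muller, with 102 against 19 UMIs and 0.92 (0.23 to 1.62), and Zfp36, with 41 and 8 UMIs, was at 0.78 (-0.26 to 1.82). Jund was at 0.46 (0.34 to 0.58), under 1.5-fold.

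Amacrine-like cells had 153 cells in MullerControl, and of 7 measured members Jun (0.72, 0.14 to 1.30) and Jund (0.67, 0.40 to 0.94) were higher and Ier2 (-0.62, -1.15 to -0.08) lower in Muller, beside 22.2% of 10743 genes. Cone-like cells had 0 of 8 measured members past 1.5-fold, beside 14.8% of 9877 genes. Rod-like cells had 3 of 10 higher and 0 lower, beside 15.8% of 11332 genes, of which 13.4% were higher. These were Fosb at 1.22, with 16 and 13 UMIs, Egr1 at 1.16 (0.66 to 1.65) and Fos at 1.12 (0.74 to 1.51). Their thinned shares in rod-like cells were low, at 1.82% and 0.733% for Fos and 1.29% and 0.573% for Egr1. The summed bipolar markers in rod-like cells were at 945 CPM in Muller and 249 in MullerControl and the Müller markers at 723 and 283, with none of the 14 and 12 markers at 0, and their part in the rod-like ratios was not tested.

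**Figure D5:**
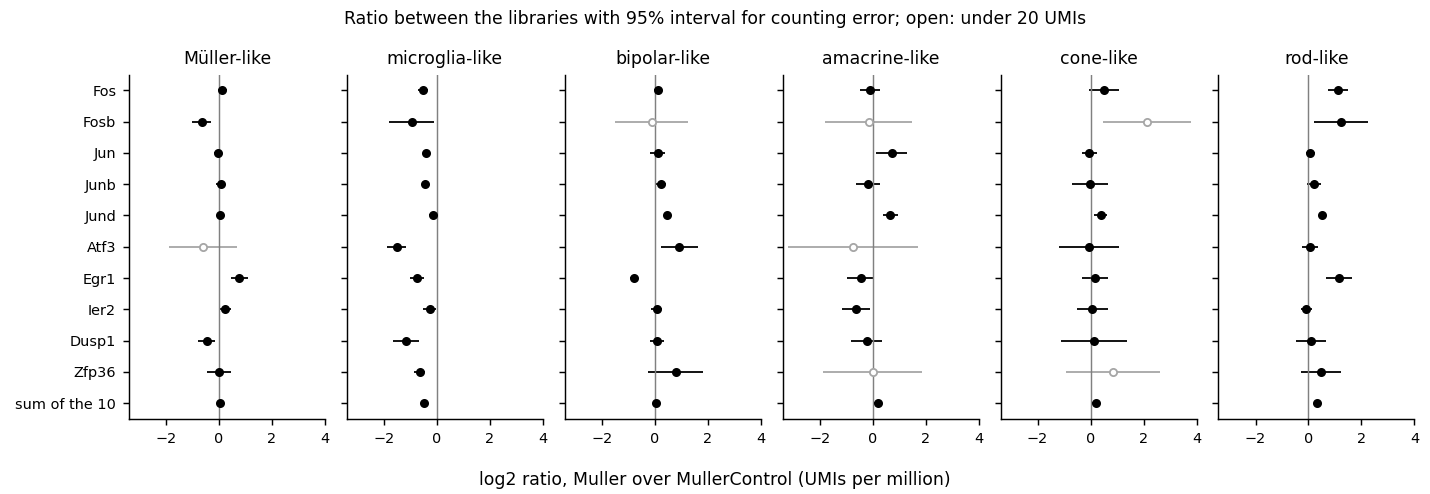
Log2 ratio of Muller over MullerControl for each gene and for the sum of the 10, by class, with 95% intervals for counting error and open points under 20 UMIs. Microglia-like points lie left of 0 for all 10 genes, and Egr1 lies right of 0 in Müller-like and rod-like cells and left of it in bipolar-like and microglia-like cells.

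Related genes outside the 10 were described from 7 lists. In Müller-like cells, of 29 other early response genes 20 were measured. Of these 2 were higher and 1, Nr4a1, was lower, and the median ratio (log2) was -0.05 where all genes had -0.03. The higher ones were Gadd45b, with 28 and 8 UMIs and a log2 ratio of 1.37, and Socs3, a brake on cytokine signalling, at 1.21 with 42 and 14 UMIs. Btg2 and Klf9, with the most UMIs of the list, were at -0.25 and -0.29, and Ccn1 was at 0.36. Of 13 other AP-1 and ATF-related genes 8 were measured and 1 was past 1.5-fold, Fosl2 at -0.83 with 13 and 19 UMIs. Cebpd, with the most UMIs, was at 0.07.

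Of 14 feedback phosphatases and decay factors 12 were measured in Müller-like cells, 1 higher and 1 lower. Dusp4 was at 1.27 with 20 and 6 UMIs and Spry4, an inhibitor of growth factor signalling, at -0.99, while the Zfp36 relatives Zfp36l1 and Zfp36l2 were at -0.21 and 0.24. Of 22 upstream kinases and factors 21 were measured, 2 higher and 1 lower. Mapk8, the Jun kinase JNK1, was at 0.81, Elk1 was the other higher gene and Elk3 the lower one. Of 9 neuronal activity genes 5 were measured, 2 higher and 1 lower, with Bdnf at 1.27 from 29 and 9 UMIs and Rgs2 at -0.78.

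The heat shock list, another mark of stress in cell suspensions, had 13 of 13 measured in Müller-like cells, 2 higher and 1 lower. Hspb1 and Dnajb1 were higher and Hspa1b was lower. Hspb1 was the farthest, with 60 and 6 UMIs and 2.81 (1.68 to 3.94), while Hsp90ab1 and Hspa8, with the most UMIs, were at -0.18 and -0.07. In the gliosis list 7 of 12 were measured, 2 higher (Lcn2 and Socs3) and 1 lower (Nes). Lcn2, a secreted protein of reactive glia, was at 68.2 against 6.47 CPM and 3.28 (2.43 to 4.13). Cp and Vim, with the most UMIs of that list, were at -0.22 and -0.16. Because Hspb1 and Lcn2 were picked for the largest ratios of their lists, their values say little beside those of the members. The median log2 ratio of the measured genes was -0.07 in the heat shock list and -0.14 in the gliosis list, beside 0.05 for the members.

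In microglia-like cells 7 of 22 measured other early response genes were lower in Muller and 0 higher, and 5 of 13 heat shock genes were lower and 0 higher. Of the feedback genes 0 of 5 were past the cut there, and of 16 upstream genes 1 was higher and 1 lower. In rod-like cells 8 of 22 other early response genes and 5 of 9 feedback genes were higher and 0 lower. Their heat shock genes had 1 higher and 1 lower of 11, and their upstream genes 2 higher and 1 lower of 20. In bipolar-like cells 5 of 24 other early response genes were higher and 1 lower, where 4.12% of all genes were higher and 7.20% lower. There 0 of 11 heat shock genes and 0 of 21 upstream genes were past the cut. In amacrine-like cells 1 of 19 other early response genes was higher and 4 were lower. These counts stand beside the shares of all genes given above for each class, and none was tested.

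Across the 12 class-by-library sums, the genes most like the summed members by Pearson r of log2(CPM + 10), among 12514 genes, were Capza2 (0.988), Lgals3bp (0.988), Ftl1 (0.985), Cebpb (0.982), Itgb5 (0.982) and Nipa2 (0.980). The 12 points are 6 classes in the same 2 libraries, so this describes a shared order of classes and little else. Capza2, an actin-capping subunit, was at 616 and 603 CPM in microglia-like cells, 266 and 278 in Müller-like and 118 and 116 in rod-like cells. Cebpb, a leucine-zipper factor of myeloid cells, had the steeper profile, at 563 and 614 CPM in microglia-like, 63.0 and 49.4 in Müller-like and 4.29 and 2.03 in rod-like cells.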

How the data were processed

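The authors deposited filtered 10x matrices of UMI counts per gene and barcode, which were used as raw counts. Per the submitters' processing notes, Cell Ranger 4.0.0 and Seurat 4.0.5 were used, and the builds mm10 and GRCh38 are named without their role. The 10 genes and all lists were chosen with earlier results of these data known. Barcodes were kept from 300 detected genes upwards and up to 20% mitochondrial UMIs. Scrublet's automatic threshold marked 2 and 0 barcodes and so did not work, and the highest scores were removed instead, at 0.8% per 1000 barcodes (1130 in Muller and 866 in MullerControl). A cell entered a class when at least 3 distinct markers and a set share of its UMIs, fixed after the data were seen (0.5% for Müller-like and microglia-like, 3% for rod-like, 0.4% for bipolar-like, 0.75% for cone-like, 0.15% for amacrine-like), passed for that class alone. Near the Müller-like cut lay 130 and 36 cells. No gate was passed by 1230 and 443 cells and several by 392 and 170. Leiden clustering without the 10 genes (scanpy 1.11.5, resolution 1) gave 17 clusters, and 96.2% to 99.7% of gated cells lay in clusters of the same name. The clusters were named with the same marker lists as the gates, so this is not independent support for the classes. UMIs were summed by class and library, with exact Poisson 95% intervals for levels and exact (Clopper-Pearson) binomial intervals for shares. With 1 library per group no test was made. The ratio calculation was tested on simulated counts. Named genes of the other lists came from a fixed rule, which took up to 4 with the largest ratio in Müller-like cells and the 2 with the most UMIs. Not every gene that the rule took is named in the text, and the rest were counted. Python 3.11.15, numpy 2.4.6 and scipy 1.17.1 were used.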

Additional observations from a re-analysis of the deposited data

Results flagged for a closer look

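Members whose log2 ratio of Muller over MullerControl had an interval above 0 in some classes and below 0 in others are given here, and for each of them the difference between the classes was not tested. Egr1 had 0.76 in Müller-like cells, 1.16 in rod-like cells but -0.76 in microglia-like and -0.80 in bipolar-like cells. Fos had 1.12 in rod-like and -0.53 in microglia-like cells, and Fosb had 1.22 in rod-like cells but -0.65 in Müller-like and -0.96 in microglia-like cells. Jun had 0.72 in amacrine-like and -0.42 in microglia-like cells, and Junb 0.23 in bipolar-like and -0.45 in microglia-like cells. Atf3 had 0.92 in bipolar-like and -1.52 in microglia-like cells. Ier2 had 0.24 in Müller-like cells, -0.28 in microglia-like and -0.62 in amacrine-like cells.

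The barcodes left out for over 20% mitochondrial UMIs, 427 in Muller and 893 in MullerControl, also held UMIs of the 10 genes, at 439 CPM (377 to 509) and 259 CPM (227 to 295).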

How the results depend on the processing

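Of 298 recomputed values, 279 kept their value within the counting interval or their count within 1.5 times, 19 moved and 0 changed sign where called. No paired analysis was possible because each group had 1 library and no test was run. The summed log2 ratio in Müller-like cells was -0.021 with no doublet removal, 0.12 without the cell with the most member UMIs and -0.035 with no doublet removal and 1 marker more in the gate, a setting chosen after seeing the data. The count of members past 1.5-fold in Müller-like cells, 2, became 1 with no doublet removal, with clusters as classes, without mitochondrial genes and Malat1, and without that cell, and 0 at 2-fold. In cone-like cells it became 1 with no doublet removal, also with 1 marker more. At 2-fold it was 2 in microglia-like and 0 in bipolar-like and amacrine-like cells. The shares of all genes past the cut at these other settings are not given here, so these counts have no background beside them. Müller-like cells with at least 3 members were 7.22% and 5.54% at 500 UMIs, and those of MullerControl 18.9% at 2000 UMIs and 19.3% unthinned. Atf3 in Müller-like cells and Fosb and Zfp36 in neurons rest on few UMIs, so their intervals are wide. The cause of these shifts was not tested.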
